A study of Mus musculus with 4 samples.

Results

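The myelin-associated growth inhibitors Omg and Rtn4 and the genes of the receptor complex that reads them were examined in cultured 1° mouse oligodendroglial cells (OGCs) with and without Zfp276. The group was set by name and not by its values, though with earlier results of these data known. It holds the 8 genes Omg, Rtn4, Rtn4r, Rtn4rl1, Rtn4rl2, Lingo1, Ngfr and Tnfrsf19, each of which was found under its symbol once among the 53465 genes listed in the count tables. RNA-Seq counts were available for 2 ctrl and 2 Zfp276cko cultures at 3 days of differentiation (3ddiff), prepared from forebrains of mice between 2 and 4 days of age. Ctrl cells carried the Zfp276 flox/flox genotype, and Zfp276cko cells carried the same alleles together with the Sox10::Cre transgene, which is active in cells of the oligodendrocyte (OL) lineage and removes exons only where it recombines. Per the study's methods each culture pooled 3 mice, the mice were of mixed C3H x C57Bl/6J background, and a Rosa26 tdTomato reporter allele was crossed into the mice used for cultures. The labels do not list this allele for either group. Each library held between 21068322 and 26599809 counted reads. No p value rests on more than 2 preparations per genotype. It sets the difference between the genotypes against the spread between cultures, which is estimated partly from the other genes.

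Omg encodes oligodendrocyte myelin glycoprotein, a lipid-anchored protein of OL and neuronal membranes. Rtn4 encodes Nogo, a reticulon protein of the endoplasmic reticulum and, in its longest form, of the OL surface. Both are known, next to Mag, for binding the Nogo receptor Rtn4r on neurons and stopping the growth of axons. Rtn4r has no part inside the cell and signals through Lingo1 and through Ngfr (p75) or Tnfrsf19 (Troy), from where the signal reaches the GTPase RhoA and its kinases. Lingo1 is also known as a brake on the differentiation of OLs themselves.

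Omg stood lower in Zfp276cko cells without overlap of the genotypes, at 54.0% of the ctrl mean. Rtn4rl2 stood higher without overlap, at 181% of it. Rtn4 lay without overlap at 84.2% of the ctrl mean and was the steadiest of the 8 genes between the ctrl cultures. Tnfrsf19 was also higher without overlap, by a narrow gap. Of all tested genes, 23.7% were lower and 26.8% higher without overlap, so that such a separation was common. The receptors and co-receptors other than Rtn4rl2 differed more between the ctrl replicates than between the genotypes. For 4 genes the direction changed with the ctrl replicate that was kept. Of these 8 genes, edgeR called 0 with all libraries, and it also called 0 of all 15766 tested genes. DESeq2, the tool of the study, called 1 of the 8, with Omg lower (adjusted p = 0.00547). Of all tested genes it called 2.11% lower and 2.85% higher.

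Promoter sequences of the members are given for the genes whose libraries did not overlap between the genotypes, to show the sequence before the start of each. RefSeq entries on GRCm38.p6, the build of mm10, were found for 6 of the 8 members with 10 start sites in all. Omg and Rtn4rl1 had no entry. The 250 bases before the most upstream listed start are printed 5′ to 3′ on the strand of the gene, and capitals mark AAAGGG or its reverse complement, the inner letters of the Zfp276 consensus that the study defines.
Rtn4 (chr11:29692648-29692897, plus strand): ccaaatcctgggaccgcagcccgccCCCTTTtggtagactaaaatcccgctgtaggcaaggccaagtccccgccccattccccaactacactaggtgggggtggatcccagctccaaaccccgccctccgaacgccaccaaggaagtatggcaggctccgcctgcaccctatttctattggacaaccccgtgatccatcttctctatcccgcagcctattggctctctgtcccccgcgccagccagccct
Rtn4rl2 (chr2:84886693-84886942, minus strand): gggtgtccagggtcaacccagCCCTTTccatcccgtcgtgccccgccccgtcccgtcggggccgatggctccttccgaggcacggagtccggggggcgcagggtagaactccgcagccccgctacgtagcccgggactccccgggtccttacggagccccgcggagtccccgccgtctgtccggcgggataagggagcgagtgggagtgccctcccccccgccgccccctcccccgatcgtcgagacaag
Tnfrsf19 (chr14:61046856-61047105, minus strand): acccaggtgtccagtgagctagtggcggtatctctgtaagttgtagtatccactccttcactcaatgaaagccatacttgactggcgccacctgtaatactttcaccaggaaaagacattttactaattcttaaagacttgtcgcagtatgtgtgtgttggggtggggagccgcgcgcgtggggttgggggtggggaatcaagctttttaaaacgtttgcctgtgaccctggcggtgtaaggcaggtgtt
The match begins 225 bases before the start of Rtn4 and 229 bases before that of Rtn4rl2, where the printed strand reads CCCTTT. The letters occurred in 2 of 10 member windows and in 19.0% of all 32851 windows of the same length. Letters found in binding sites of Sox proteins were searched in the same way on both strands, with overlaps allowed. ACAAAG was in 16.5% of all windows, the related ACAATG in 10.7% and the related AACAAT in 9.42%. Any of them was in 29.6% of all windows and in 0 of 10 member windows. A match describes the letters of a window and is not a binding site.

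The libraries were compared across all 15766 genes that passed the filter on low counts, among them all 8 members. Calls required 3 things of a gene, namely an adjusted p up to 0.05 by edgeR's quasi-likelihood test, a log2 fold change of 0.6 or more in size, and a mean of 20 or more normalized counts, which are counts scaled to a common library size. By this rule 0 of the 8 members and 0 of all genes (0%) were called. With the p taken before adjustment and both other thresholds kept, 1 member was lower (Omg) and 1 higher (Rtn4rl2), against 3.02% and 5.11% of all genes. DESeq2 called 1 member lower (Omg) and 0 higher, against 2.11% and 2.85% of all tested genes. The genotypes did not overlap for 4 members, with Zfp276cko lower for 2 (Omg and Rtn4) and higher for 2 (Rtn4rl2 and Tnfrsf19), and the same held for 23.7% and 26.8% of all genes. The median log2 fold change was 0.07 over the members and −0.0013 over all tested genes.

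The spread between replicates was unequal, which bears on every value given here. Of the 14324 genes above a mean of 20 normalized counts, a difference of 2-fold or more was found between both ctrl libraries for 12.7% and between both Zfp276cko libraries for 0.307%. Among the members, such a difference was found for 4 in ctrl (Rtn4r, Rtn4rl1, Ngfr and Tnfrsf19) and 0 in Zfp276cko cells. Zfp276 itself was lower in Zfp276cko cells, at 490 and 503 normalized counts against 1648 and 2230 in ctrl. Even so, edgeR did not call Zfp276 (adjusted p = 0.0962), whereas DESeq2 did (adjusted p = 1.17e-14). A count per gene also includes the exons that remain after recombination. Markers of mature OLs and of their precursors (OPCs) were abundant in all libraries, with sums over 8 and 6 markers of 8693 to 17270 and of 4176 to 7704 counts per 1000000 counted reads (CPM). The mature OL sum was lower in both Zfp276cko libraries (8693 and 8893) than in both ctrl libraries (12635 and 17270), in the direction of Omg. The OPC sum was lower as well (4252 and 4176 against 7704 and 5657 in ctrl) and, like Omg, higher in ctrl replicate 1 than in ctrl replicate 2. Gpr17 held the most counts of the 6 OPC markers, so that the sum mostly follows this gene. It was at 113405 and 69766 normalized counts in ctrl and at 43296 and 41092 in Zfp276cko. Pdgfra and Lhfpl3 overlapped between the genotypes, and the other OPC markers were lower in Zfp276cko without overlap. Ptprz1, Cacng4 and Lhfpl3 had the same order of the ctrl replicates as Gpr17. Pdgfra (10049 against 15501 after normalization) and Cspg4 (2809 against 3918) had the opposite order, with ctrl replicate 1 lower. The part of either sum in the values of Omg was not tested. In these bulk samples, fewer cells of a type and less RNA per cell cannot be told apart.

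**Figure D1:**
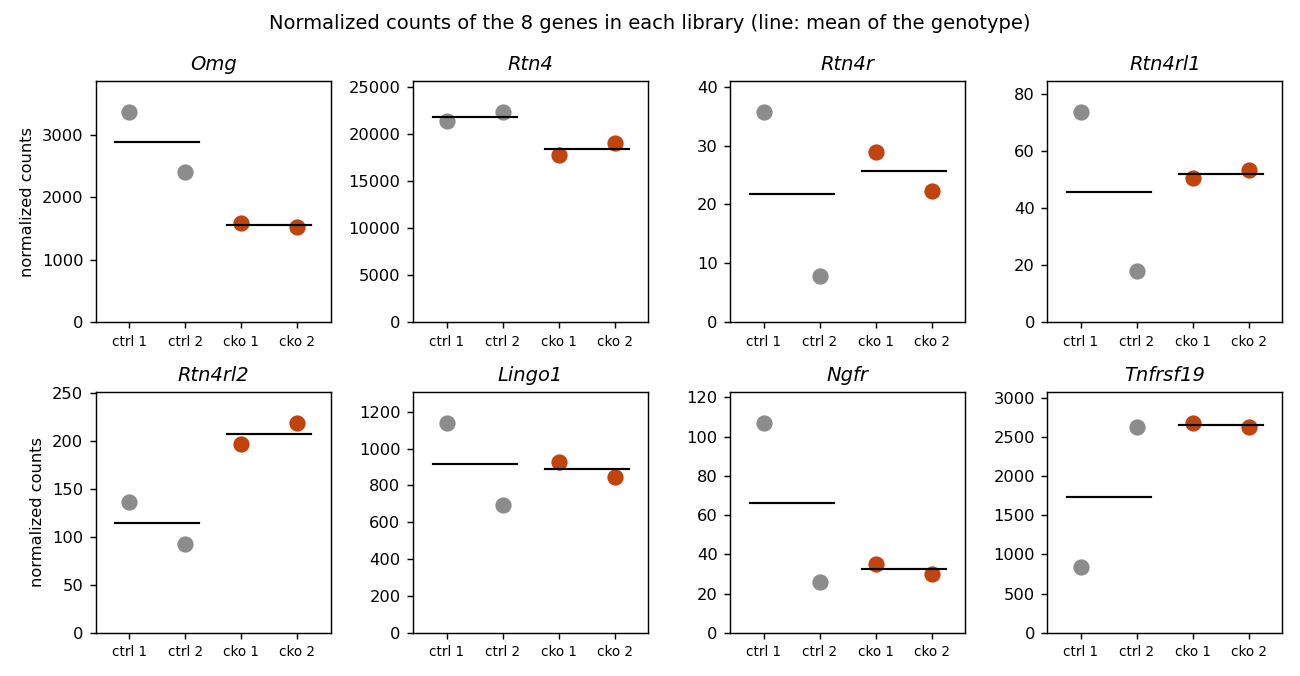
Normalized counts (y axis, from 0) of each of the 8 genes in the 4 libraries (x axis), with ctrl in grey, Zfp276cko (cko) in red and lines for the mean of each genotype. The Zfp276cko replicates lie close together for every gene, whereas the ctrl replicates are far apart for Rtn4r, Rtn4rl1, Ngfr and Tnfrsf19.

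Omg (ENSMUSG00000049612.10) is annotated on the minus strand of chromosome 11 (mm10, 79500982 to 79504084). Ctrl libraries 1 and 2 held 3361 and 2400 normalized counts of it, and Zfp276cko libraries 1 and 2 held 1591 and 1520. The genotypes did not overlap, while the ctrl libraries themselves were 1.40-fold apart. Means were 2881 ± 679 (SD, n = 2) for ctrl and 1555 ± 50.1 (SD, n = 2) for Zfp276cko. The log2 fold change was −0.89 ± 0.19 (standard error from edgeR, SE), at an adjusted p of 0.179. The call changed with DESeq2, where the values were −0.91 and 0.00547. Limma voom with quality weights per genotype gave an adjusted p of 0.0699. Leaving out ctrl replicate 1 gave −0.63 (edgeR adjusted p = 3.58e-06), and leaving out ctrl replicate 2 gave −1.13 (edgeR adjusted p = 1.41e-10). Leaving out Zfp276cko replicate 1 or 2 gave −0.92 or −0.85 (edgeR adjusted p = 0.9999 for both). A fit with 1 ctrl library takes its spread from the Zfp276cko libraries and assumes that the lone ctrl library varies as little. The study names Omg among the genes lower in these libraries, so that its direction is not independent evidence.

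Omg is nested in another gene. GENCODE places it in intron 36 of the Nf1 transcript with 58 exons, on the strand opposite to Nf1, 25098 bases after the exon before it and 31518 bases before the next. Its exons share 0 bases with exons of Nf1. The same intron holds Evi2b and Evi2a, which lie 10971 and 22475 bases from Omg. Nf1, which encodes a GTPase-activating protein of Ras, was counted at 7789 and 6368 in ctrl and, normalized alike, at 5047 and 4990 in Zfp276cko. The genotypes did not overlap here either, with a log2 fold change of −0.50 ± 0.14 (SE, edgeR adjusted p = 0.232). Evi2a was at 468 and 338 normalized counts in ctrl and at 365 and 354 in Zfp276cko, so that the genotypes overlapped, with a log2 fold change of −0.16 ± 0.21 (SE). Evi2b was listed at 0 in all 4 libraries. Libraries were stranded, but the strand setting of the counting is not given in the sources used here, and without it reads of Omg and of unspliced Nf1 RNA cannot be told apart.

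**Figure D2:**
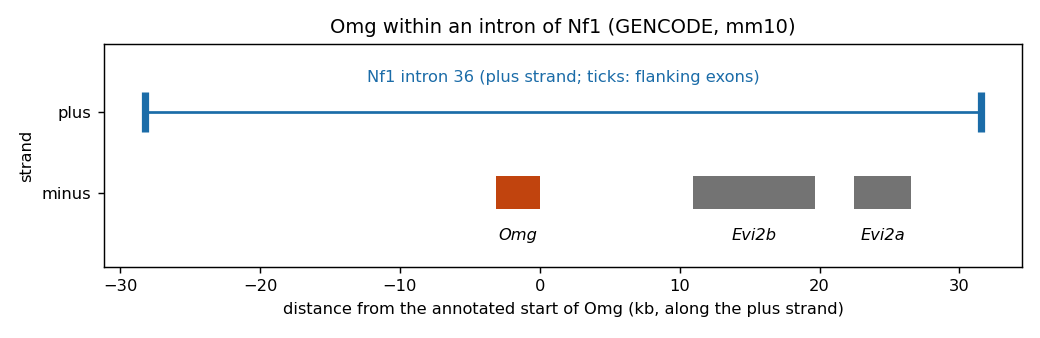
Position of Omg, Evi2b and Evi2a (boxes, minus strand) within intron 36 of Nf1 (line, plus strand) by distance in kb from the annotated start of Omg (x axis). Omg lies near the middle of the intron, 25098 and 31518 bases from the flanking Nf1 exons, with Evi2b and Evi2a between Omg and the next exon.

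Rtn4 (ENSMUSG00000020458.16, chromosome 11 from 29692947 to 29744331, plus strand) was the most counted member. Ctrl libraries 1 and 2 held 21434 and 22337 normalized counts, and Zfp276cko libraries 1 and 2 held 17784 and 19068. All Zfp276cko values were lower, by a small margin. Means were 21886 ± 639 (SD, n = 2) for ctrl and 18426 ± 908 (SD, n = 2) for Zfp276cko, with a log2 fold change of −0.25 ± 0.12 (SE, edgeR adjusted p = 0.405). The value was −0.28 or −0.23 with ctrl replicate 1 or 2 left out, both smaller than the threshold of 0.6. GENCODE lists 6 coding transcripts for Rtn4, and a count per gene sums over these forms, so that the long form at the OL surface cannot be told from the short ones. Exons of Rtn4 and of Eml6, on the opposite strand, overlap over 1284 bases or 18.4% of the exon sequence of Rtn4, whose reads are uncertain there. Eml6, singled out for this overlap, was at 240, 472, 433 and 427 normalized counts in the same order of libraries.

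Among Rtn4r and its relatives Rtn4rl1 and Rtn4rl2, Rtn4rl2 (NgR2, a receptor known for binding Mag) was the one with separate genotypes. It lies on chromosome 2 from 84871924 to 84886710 on the minus strand. Ctrl libraries 1 and 2 held 137 and 92.3 normalized counts of Rtn4rl2, and Zfp276cko libraries 1 and 2 held 196 and 218. Both Zfp276cko values were the higher ones. The log2 fold change was 0.86 ± 0.27 (SE, edgeR adjusted p = 0.279, DESeq2 adjusted p = 0.204). Leaving out ctrl replicate 1 gave 1.17 (edgeR adjusted p = 1.68e-05), and leaving out ctrl replicate 2 gave 0.59 (edgeR adjusted p = 0.00462), just below the fold threshold.

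Rtn4r (NgR1, the receptor shared by Nogo, Omg and Mag, chromosome 16 from 18127642 to 18152408) was the least counted member. Reads were few, with raw counts of 30 and 7 for ctrl libraries 1 and 2 and of 32 and 26 for Zfp276cko libraries 1 and 2. These are 35.6, 7.88, 29.0 and 22.3 normalized counts. The exact 95% Poisson intervals of the ctrl counts, 20.2 to 42.8 and 2.81 to 14.4, do not overlap and cover counting error only. Both Zfp276cko values lay between the ctrl values, with a log2 fold change of 0.24 ± 0.75 (SE, edgeR adjusted p = 0.908). Leaving out ctrl replicate 1 gave 1.69 (edgeR adjusted p = 0.0181), and leaving out ctrl replicate 2 gave −0.49.

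Rtn4rl1 (NgR3, a relative that binds chondroitin sulphate chains, chromosome 11 from 75193783 to 75267769) showed the same arrangement. Its normalized counts of 50.7 and 53.3 in Zfp276cko libraries 1 and 2 were enclosed by those of 73.6 and 18.0 in ctrl libraries 1 and 2. The log2 fold change was 0.19 ± 0.70 (SE, edgeR adjusted p = 0.926). Leaving out ctrl replicate 1 gave 1.53 (edgeR adjusted p = 0.00176), and leaving out ctrl replicate 2 gave −0.51.

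Of the co-receptors, Lingo1 (chromosome 9 from 56618475 to 56796468, minus strand) was at 1137 and 695 normalized counts in ctrl libraries 1 and 2 and at 927 and 846 in Zfp276cko libraries 1 and 2. The ctrl values again enclosed those of Zfp276cko. The means of 916 ± 313 and 887 ± 57.4 (SD, n = 2) gave a log2 fold change of −0.05 ± 0.26 (SE, edgeR adjusted p = 0.952). The value was 0.35 or −0.37 with ctrl replicate 1 or 2 left out, so that no direction can be given.

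Tnfrsf19 (Troy, a death-domain-free receptor of the TNF receptor family, chromosome 14 from 60963875 to 61046490, minus strand) was the more counted of the receptors that can pair with Lingo1. Ctrl libraries 1 and 2 held 842 and 2624 normalized counts, and Zfp276cko libraries 1 and 2 held 2674 and 2631. The genotypes did not overlap, but only by the narrow gap between 2624 and 2631, and ctrl replicate 1 alone stood apart. The log2 fold change of 0.61 ± 0.55 (SE, edgeR adjusted p = 0.646) became 0.016 without ctrl replicate 1. With ctrl replicate 2 left out instead it was 1.64 (edgeR adjusted p = 3.47e-12).

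Ngfr (p75, the neurotrophin receptor, chromosome 11 from 95568818 to 95587735, minus strand) showed the reverse order of the ctrl replicates. Ctrl libraries 1 and 2 held 107 and 25.9 normalized counts, and Zfp276cko libraries 1 and 2 held 35.3 and 30.1. Only ctrl replicate 1 stood apart, and the genotypes overlapped. The log2 fold change of −1.02 ± 0.73 (SE, edgeR adjusted p = 0.564) was the largest in size among the members. Leaving out ctrl replicate 1 gave 0.33, and leaving out ctrl replicate 2 gave −1.72 (edgeR adjusted p = 6.87e-06).

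**Figure D3:**
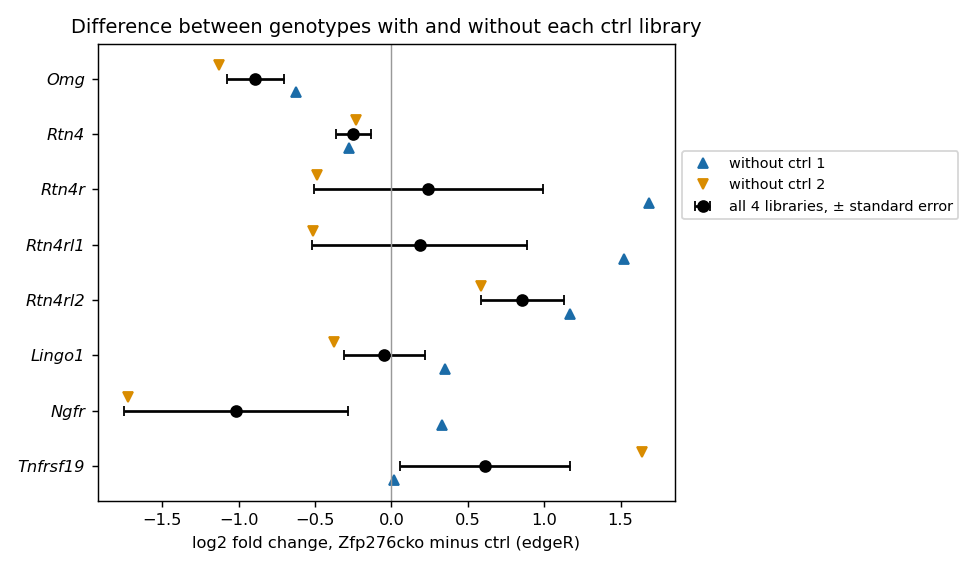
Log2 fold change between the genotypes (x axis, Zfp276cko minus ctrl) of the 8 genes with all 4 libraries (black, bars are standard errors), without ctrl replicate 1 (blue) and without ctrl replicate 2 (orange). The direction is the same in all 3 cases for Omg, Rtn4, Rtn4rl2 and Tnfrsf19, where Tnfrsf19 is at 0.016 without ctrl replicate 1, and it changes for Rtn4r, Rtn4rl1, Lingo1 and Ngfr.

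Calls on the members therefore followed the ctrl library that was kept. Without ctrl replicate 1, 1 member was called lower (Omg) and 3 higher (Rtn4r, Rtn4rl1 and Rtn4rl2), against 5.76% and 10.2% of all genes. Without ctrl replicate 2, 2 members were called lower (Omg and Ngfr) and 1 higher (Tnfrsf19), against 7.77% and 10.8% of all genes. Omg was called in both cases, and the other 7 members in 1 or neither.

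Markers of other cells moved with the ctrl replicates. The summed level of 8 fibroblast and mural markers was 379 CPM in ctrl replicate 1, where Omg, Lingo1, Ngfr, Rtn4r and Rtn4rl1 were highest, and 20.1 CPM or less in each of the other libraries. The sum of 8 neuronal markers was 27.3 in ctrl replicate 1, where Tnfrsf19 was lowest, and 132, 88.8 and 91.6 in the other libraries. Per the labels the cultures were depleted of microglia, and the sum of 8 microglial markers was 1348, 640, 890 and 928 CPM in ctrl replicates 1 and 2 and Zfp276cko replicates 1 and 2. Its genes did not move together. Csf1r (11409 against 1850 normalized counts), C1qa, P2ry12, Tmem119, Itgam and Cd68 were higher in ctrl replicate 1 than in ctrl replicate 2. Aif1 (1248 against 3204) and Cx3cr1 (2290 against 2369) were lower there. Between the genotypes, Cd68 and Cx3cr1 were higher in Zfp276cko without overlap, and the other microglial markers overlapped. The sum of 8 astrocyte markers lay between 1652 and 1930 CPM, while its genes differed between the ctrl replicates in both directions, with Gfap at 17641 and 8463 and Slc1a3 at 2674 and 6747 normalized counts. The median difference between the ctrl replicates over this list was 1.01 in size on the log2 scale. In these 4 lists 0 markers were at or under 3 counts in all libraries. The part of these cells in the values of the members was not tested.

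Levels were compared between genes only per length, as counts per kb of exon and 1000000 counted reads, with exon lengths from GENCODE that may differ from the gene models used for counting. In ctrl cells the order was Rtn4 (132 ± 3.86, SD, n = 2), Omg (54.7 ± 12.9), Tnfrsf19 (15.5 ± 11.3), Lingo1 (8.22 ± 2.80) and Rtn4rl2 (3.21 ± 0.879). Tnfrsf19 and Lingo1 were not separated in ctrl, where the libraries of Tnfrsf19 (7.52 and 23.4) overlapped in range with those of Lingo1 (10.2 and 6.24). Ngfr (0.815), Rtn4rl1 (0.550) and Rtn4r (0.475) followed on this scale and overlapped each other. In Zfp276cko cells the order of the first 5 was the same, with Rtn4 at 112 ± 5.49, Omg at 29.5 ± 0.952, Tnfrsf19 at 23.7 ± 0.272, Lingo1 at 7.96 ± 0.515 and Rtn4rl2 at 5.82 ± 0.434 (SD, n = 2), each apart from the next. Rtn4rl1 (0.624) and Rtn4r (0.560) overlapped there, and Ngfr (0.401) lay below both. Rtn4 and Omg were thus counted far more per length than Rtn4r, Rtn4rl1 and Rtn4rl2 in both genotypes.

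**Figure D4:**
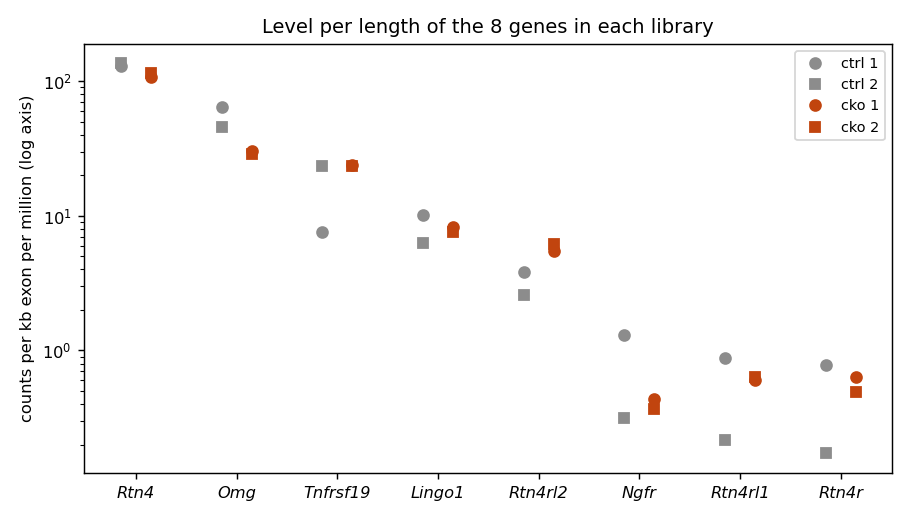
Counts per kb of exon and 1000000 counted reads (y axis, log scale) of the 8 genes in each library, ordered by the ctrl mean, with ctrl in grey and Zfp276cko (cko) in red. Rtn4 and Omg are highest in all 4 libraries, and Ngfr, Rtn4rl1 and Rtn4r lie near or below 1.

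Other genes of the pathway were taken from lists that hold no member. Of 9 further ligands and receptors, 2 were lower and 4 higher in Zfp276cko without overlap of the genotypes, against 23.7% and 26.8% of all genes, and the median log2 fold change was 0.19. Mag, the third myelin ligand of Rtn4r, was at 11060 and 18911 normalized counts in ctrl and at 8380 and 8071 in Zfp276cko, and it also counts among the mature OL markers. Its log2 fold change was −0.87 ± 0.29 (SE, edgeR adjusted p = 0.290), and DESeq2 called it lower (adjusted p = 0.0477). All 3 myelin ligands were lower in Zfp276cko without overlap, but Omg was higher in ctrl replicate 1 and Mag in ctrl replicate 2.

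Among the 6 relatives of reticulons and Lingo1, 2 were lower and 2 higher without overlap, near the 23.7% and 26.8% of all genes, with a median of 0.17. Lingo2, a leucine-rich repeat protein related to Lingo1, was at 337 and 546 normalized counts in ctrl and at 156 and 198 in Zfp276cko. The genotypes were well apart, with a log2 fold change of −1.32 ± 0.31 (SE, edgeR adjusted p = 0.193), and DESeq2 called it lower (adjusted p = 0.00601). Of 8 tested neurotrophins and partners of p75, 4 were lower and 0 higher without overlap (23.7% and 26.8% of all genes), and the median was −0.06. Sort1, the p75 partner sortilin, had a log2 fold change of −0.40 ± 0.11 (SE, edgeR adjusted p = 0.241), and Sorcs2, a relative of sortilin, had one of −0.46 ± 0.18 (SE, edgeR adjusted p = 0.345).

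Of 12 genes of the RhoA arm, by which the receptor complex is known to reach the cytoskeleton, 7 were lower and 1 higher without overlap (23.7% and 26.8% of all genes), and their median was −0.20 on the log2 scale. Dpysl2, a tubulin-binding protein of growing axons, was at 4825 and 5208 normalized counts in ctrl and at 3374 and 3895 in Zfp276cko. Its log2 fold change was −0.46 ± 0.12 (SE, edgeR adjusted p = 0.215). Rock2, a kinase activated by RhoA, had a log2 fold change of −0.37 ± 0.12 (SE, edgeR adjusted p = 0.283). DESeq2 called 0 genes of the RhoA arm, 0 of the p75 partners and 0 at the Omg locus. Over all 37 tested pathway genes, 16 were lower and 7 higher without overlap (23.7% and 26.8% of all genes), with a median of −0.10, and edgeR called 0 of them. Before adjustment of p, 2 would be called lower (Mag and Lingo2) and 0 higher, against 3.02% and 5.11% of all genes.

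**Figure D5:**
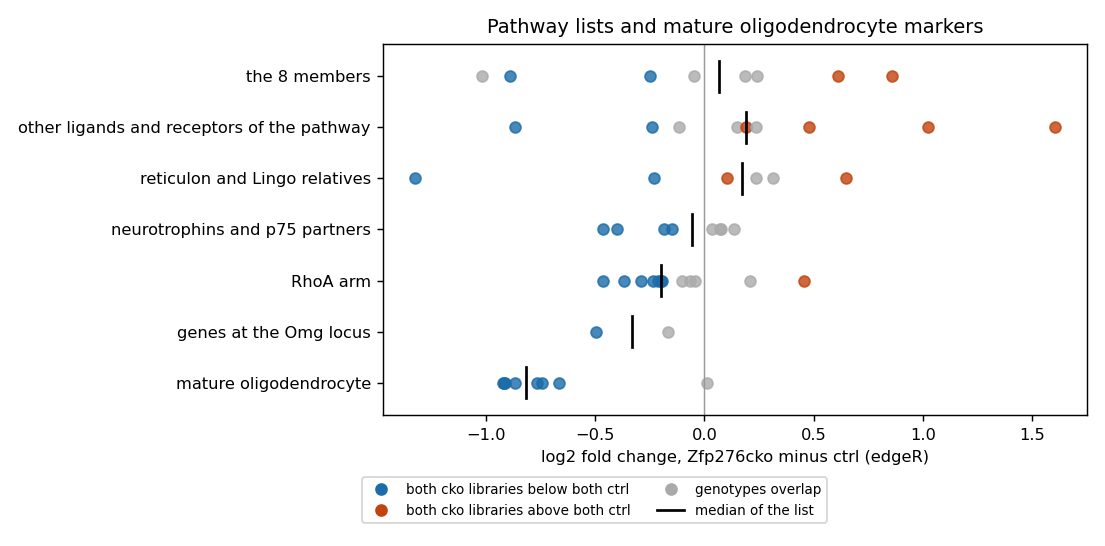
Log2 fold change (x axis, Zfp276cko minus ctrl) of the 8 members, of each pathway list and of 8 mature OL markers, with 1 point per tested gene and a line at the median of the list; blue and red points mark genes whose Zfp276cko libraries lie below or above both ctrl libraries, and grey points overlap. The members spread to both sides of 0, with a median of 0.07, whereas 7 of 8 mature OL markers lie below both ctrl libraries.

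The genes with the most similar pattern over the 4 libraries were found for each member by the root-mean-square distance of log2 normalized counts, each gene centred on its own mean, among 14323 genes. These are descriptions of 4 libraries. For Omg they were 2810468N07Rik (distance 0.0269) and Ptprt (0.0324), and for Rtn4 they were Msl1 (0.0070) and Hsp90aa1 (0.0112). Rtn4r was closest to Pdzd7 (0.0965) and Neat1 (0.126), and Rtn4rl1 to Gsdmd (0.0552) and Ctss (0.0678). Rtn4rl2 was closest to Thrsp (0.0244) and Pnpt1 (0.0348), Lingo1 to Gm43128 (0.0187) and Haus7 (0.0221), Ngfr to Ntsr2 (0.0501) and Slc6a12 (0.0644), and Tnfrsf19 to Pcdha5 (0.0280) and Cd24a (0.0389).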

How the data were processed

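Total RNA of 2 ctrl and 2 Zfp276cko preparations was sequenced from stranded mRNA libraries as single-end reads. Mapping to mm10 used STAR 2.5.4a. The deposited values are raw counts, made by the authors for each gene symbol and not normalized. The study's methods name HTSeq on Ensembl 75 for the counting and the submitters' processing notes name featureCounts 1.5.1. The tables hold 53465 genes. Counted reads per library were between 21068322 and 26599809, and both the number of libraries and, for genes with few reads, this depth limit the precision.

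Genes were kept by filterByExpr of edgeR 4.0.16 in R 4.3.3 (15766 genes), normalized with TMM and compared by edgeR's quasi-likelihood test without covariates and with Benjamini-Hochberg adjustment over all genes tested. Standard errors are the log2 fold change divided by the root of its F statistic. CPM and levels per length use library sizes after TMM. The thresholds are those of the study. Alternatives were DESeq2 1.42.0, its size factors, other filters on low counts, a replicate block, voom of limma 3.58.1 with quality weights and leaving out each library. Members and lists were chosen with earlier results of these data known. Named genes are the members, those at the Omg locus, pathway genes called by edgeR or DESeq2 (otherwise the 2 with the smallest p of a list), markers, and the 2 nearest patterns per member. Motifs and Eml6 were added later. Positions and exon lengths came from GENCODE M21 and promoters from RefSeq. The test was checked on simulated counts. An exact permutation test of 2 against 2 libraries cannot go below a two-sided p of 0.333. Itgam was listed under its symbol more than once, and the entry with reads was used. Some genes of the marker and pathway lists are not reported here.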

Additional observations from a re-analysis of the deposited data

How the results depend on the processing

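Having 2 libraries per genotype limits these results, and depth limits Rtn4r, with 7 to 32 counts per library. With all 4 libraries, edgeR called 0 genes lower and 0 higher. DESeq2, fitted without the filter of edgeR, called 338 lower (333 of them among the genes edgeR tested) and 449 higher, and limma voom with quality weights 72 and 133. Without a filter on low counts edgeR called 8 higher. DESeq2 called 1 member (Omg), 1 further ligand (Mag) and 1 reticulon or Lingo relative (Lingo2) lower, and under DESeq2 the log2 fold change of Omg was −0.91. Leaving out each library in turn gave between 0 and 1286 genes called lower and between 0 and 1792 higher, with 0 calls without either Zfp276cko replicate. Of the members 0 to 2 were then called lower and 0 to 3 higher, and their median lay between −0.43 and 0.34. Of further ligands and receptors 0 to 1 were called lower and 0 to 3 higher (median −0.077 to 0.40), of reticulon and Lingo relatives 0 to 1 in either direction (median −0.014 to 0.19), of p75 partners 0 to 1 lower (median −0.16 to −0.012), of the RhoA arm 0 to 1 lower and 0 to 2 higher (median −0.21 to −0.14), and at the Omg locus 0 to 1 lower (median −0.52 to −0.13). Without ctrl replicate 1, Rtn4r was at 1.69 and Rtn4rl1 at 1.53, and without ctrl replicate 2, Lingo1 was at −0.37 and Ngfr at −1.72. Reversed directions were those of Lingo1 (0.35) and Ngfr (0.33) without ctrl replicate 1, of Rtn4r (−0.49) and Rtn4rl1 (−0.51) without ctrl replicate 2, and of Lingo1 (0.020) without Zfp276cko replicate 2. With at least 10 counts required in every library Rtn4r was not tested. The replicate block gave 0 calls among all genes and a log2 fold change of −0.87 for Omg. Same-numbered libraries did not deviate together (correlation 0.0067 across genes). With 0.307% of genes 2-fold apart between the Zfp276cko replicates, this value cannot show whether same-numbered libraries were prepared together. The cause of these differences between tools was not tested.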

Other observations

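Omg did not follow the mature OL markers between the ctrl cultures. It had 11.3 counts per 1000 counts of 8 mature OL markers in ctrl replicate 1, 5.88 in ctrl replicate 2, and 7.74 and 7.23 in Zfp276cko replicates 1 and 2, so that this ratio overlapped between the genotypes. Of these 8 markers, 6 were lower in ctrl replicate 1 than in ctrl replicate 2, whereas Omg was higher. Per 1000 counts of 6 OPC markers, the ratio was 18.5 and 18.0 for ctrl and 15.8 and 15.4 for Zfp276cko. Both Zfp276cko libraries were below both ctrl libraries on this scale. Of the 6 OPC markers, Gpr17 held the most counts (95516 and 61998 in ctrl, 47848 and 47829 in Zfp276cko) and was at 46.1% of its ctrl mean after normalization, against 91.6% for Pdgfra and 109% for Lhfpl3. Between the ctrl cultures, Gpr17, Ptprz1, Cacng4 and Lhfpl3 had the order of Omg, and Pdgfra and Cspg4 had the opposite one. The ratios were chosen after the values were seen and no test was made on them.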
